A study of Mus musculus with 8 samples.

Results

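The genes described here mark the alveolar type 1 (AT1) cell, the thin epithelial cell that lines most of the gas-exchange surface of the lung. They are Ager, Hopx, Aqp5, Pdpn, Akap5, Rtkn2, Clic5, Emp2, Cav1 and Gprc5a. They were chosen by name as textbook AT1 genes, with earlier results of these data known. Of the 10 genes, 9 had a row in a table of 24625 rows of messenger RNA measurements. Rtkn2 had no row that could be matched to it. The samples were lung neutrophils of wild type (WT) C57BL/6J mice, aged 6-12 weeks, in both groups. The 4 samples of the SP group came from mice whose left lung had been instilled with S. pneumoniae (SP), a cause of bacterial pneumonia, in a volume of 2.3 µl for each g of weight. The 4 samples of the PBS group came from mice given phosphate-buffered saline (PBS) in its place, and lungs were taken after 24 h in both groups. Lungs were digested to single cells, and cells held by anti-Ly6G beads (Ly6G marks the neutrophil surface in mice) were hybridised to 1 array per sample. Neither the bead selection nor the arrays separate neutrophil RNA from RNA of other lung cells that came through the column, and the study's methods describe a check of purity on stained cytospins for the pneumonia samples only. There nearly all cells were neutrophils, and the few others mostly looked like alveolar macrophages and rarely like eosinophils. The study also reports high Ly6G mRNA in each sample.

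AT1 cells are wide and flat, share a basement membrane with the capillary endothelium, and let gas and water pass between air and blood. In the adult lung they can arise from alveolar type 2 (AT2) cells, which make surfactant and act as progenitors. AT1 identity is maintained by the transcription factor NKX2-1 together with the YAP and TAZ coactivators and their TEAD partners. AT1 cells are among the cells injured in bacterial pneumonia. Several AT1 genes are also used elsewhere. Cav1 is abundant in endothelium, Pdpn in lymphatic endothelium, mesothelium and some fibroblasts, and Clic5 in endothelium and other cells.

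The stretch of 150 bases before the transcription start is shown for the 3 genes with the largest falls (Aqp5, Cav1 and Emp2) and for Pdpn, the gene with the highest difference, because these are the extremes of the comparison described next. Sequences are from RefSeq on GRCm38.p6, 5′ to 3′ on the strand of the gene, and end at the base before the outermost start of the gene. Capitals mark matches to an E-box (CACGTG) or a GC box (GGGCGG) on either strand. Aqp5 lies on the plus strand (chr15:99590878-99591027), as does Cav1 (chr6:17306185-17306334). Emp2 (chr16:10313969-10314118) and Pdpn (chr4:143299565-143299714) lie on the minus strand.
Aqp5: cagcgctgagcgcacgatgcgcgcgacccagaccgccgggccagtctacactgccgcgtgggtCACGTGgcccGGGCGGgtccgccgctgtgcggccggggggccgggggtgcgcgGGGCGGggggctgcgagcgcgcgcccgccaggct
Cav1: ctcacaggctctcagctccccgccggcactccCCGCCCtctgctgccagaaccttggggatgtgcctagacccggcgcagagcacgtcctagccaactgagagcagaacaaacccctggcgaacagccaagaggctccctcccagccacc
Emp2: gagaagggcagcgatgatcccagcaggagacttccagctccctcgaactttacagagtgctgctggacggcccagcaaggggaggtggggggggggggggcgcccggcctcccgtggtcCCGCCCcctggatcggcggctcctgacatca
Pdpn: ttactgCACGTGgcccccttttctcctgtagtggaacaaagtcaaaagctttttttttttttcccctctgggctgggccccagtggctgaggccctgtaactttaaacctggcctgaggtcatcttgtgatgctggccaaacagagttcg

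Over the 250 bases before each start, 10 windows were found for 8 of the 10 genes, with 2 windows each for Hopx and Cav1 and none for Gprc5a and Rtkn2. The E-box, a site for bHLH factors, lay in 3 of the 10 windows (Aqp5, Hopx and Pdpn), against 6.02% of all 32851 windows, and the GC box, a site for SP1-type factors, in 5 (Akap5, Aqp5, Cav1, Clic5 and Emp2), against 32.7%. No window held the TEAD site GGAATG (12.6% of all windows), the NKX2-1 site CAAGTG (11.6%), the AP-1 site TGANTCA (6.75%) or the NF-κB motif (0.356%), on either strand. A second NKX2-1 site, CTCAAG, lay in 1 Hopx window (13.3% of all windows). The E-box was present both in a gene that fell (Aqp5) and in the gene with the highest difference (Pdpn). These are matches of letters only.

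The values were on a log2 scale as deposited, so that a difference of 1 unit is 2-fold. Array medians lay between 6.06 and 6.20 in PBS and between 5.78 and 5.91 in SP. Rows of the Y-linked genes Ddx3y, Kdm5d and Uty lay between 4.33 and 4.90 on all 8 arrays and are given as a rough level of background. This level was not the same in both groups, since the 3 rows were higher in SP by 0.12, 0.19 and 0.18 log2 units. The labelled cell type was visible in both groups. The mean of 8 neutrophil markers lay between 12.80 and 13.11 in PBS and between 12.47 and 13.01 in SP, with Ly6g itself among the genes that had no matched row. A gene is called here when limma, a linear model with moderated variances, gave an adjusted p of at most 0.05 over all rows. By this rule Kdm5d was called higher in SP (adjusted p = 0.0497), a call lost under 12 of 16 alternatives. The p-values measure only the spread between these samples. Their labels do not name separate animals, though a figure legend of the study describes each sample as coming from a mouse.

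The first question was whether AT1 genes differed between the SP and PBS preparations. Of the 9 genes, 7 were called lower in SP, each by at least 2-fold (3.06- to 5.47-fold), and in all 7 every SP value lay below every PBS value. Over all rows, 22.6% were called lower, 11.3% were called at least 2-fold lower, and 21.8% had all SP arrays below all PBS arrays. The median difference of the 9 genes was -1.85 log2 units, against 0.10 for all rows. Clic5 and Pdpn were not called, and none of the 9 was called higher, against 21.5% of all rows. In such preparations fewer cells of a type, less RNA per cell and a larger share of RNA from other cells cannot be told apart.

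**Figure D1:**
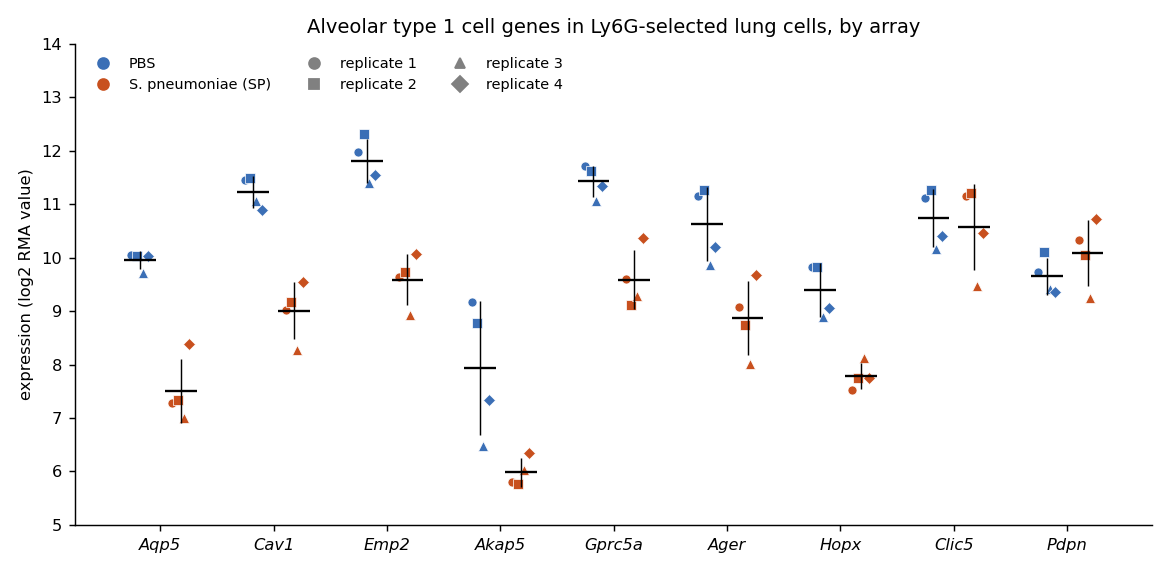
Expression of the 9 AT1 genes with a matched row on each array (y axis, log2 RMA value), ordered by their difference, with PBS in blue, SP in orange, 1 marker shape per replicate number, and the mean and SD (n = 4) as horizontal and vertical lines. The 7 genes from Aqp5 to Hopx have no overlap between groups, while Clic5 (10.74 ± 0.54 and 10.58 ± 0.81) and Pdpn (9.65 ± 0.34 and 10.09 ± 0.62) overlap.

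Aqp5 encodes aquaporin 5, the water channel of the apical AT1 membrane. Its log2 values were 10.06, 10.03, 9.71 and 10.04 in PBS replicates 1 to 4, and 7.29, 7.34, 7.01 and 8.38 in SP replicates 1 to 4. The groups were separated by 1.32 units, and SP replicate 4 was the only SP array above 8. The difference of -2.45 ± 0.27 log2 units (SE) was the largest of the 9 genes, a 5.47-fold fall with a 95% confidence interval of 3.55 to 8.42 (adjusted p = 0.000215), and only 1.39% of all rows had a lower difference.

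Cav1 encodes caveolin 1, the coat protein of caveolae, which are dense in AT1 cells and in endothelium. The arrays gave log2 values of 11.45, 11.50, 11.07 and 10.89 in PBS and 9.03, 9.18, 8.27 and 9.54 in SP. This gene had the widest separation, 1.35 units between the lowest PBS and the highest SP array. Expression fell 4.66-fold (95% interval 3.06 to 7.10, adjusted p = 0.000315).

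Emp2 encodes epithelial membrane protein 2, a tetraspan protein of the AT1 surface. Its log2 values were 11.98, 12.31, 11.39 and 11.55 in PBS and 9.64, 9.74, 8.92 and 10.07 in SP. All 4 SP arrays lay at least 1.32 units below the lowest PBS array. The fall was 4.65-fold (95% interval 2.99 to 7.21, adjusted p = 0.000396), nearly that of Cav1.

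Gprc5a encodes an orphan receptor of lung epithelium that is induced by retinoic acid. On the log2 scale the arrays gave 11.71, 11.62, 11.07 and 11.34 in PBS and 9.60, 9.11, 9.28 and 10.36 in SP. SP replicate 4 was again the highest SP array, 0.71 below the lowest PBS array. The gene fell 3.59-fold (95% interval 2.34 to 5.53, adjusted p = 0.000935).

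Hopx encodes a homeodomain-only protein without DNA binding of its own, found in AT1 cells and in some other tissues. Its log2 values were 9.83, 9.83, 8.89 and 9.05 in PBS and 7.53, 7.75, 8.13 and 7.74 in SP. The SP arrays lay within 0.60 units of each other, and here SP replicate 3 was the highest. The fall of 3.06-fold (95% interval 2.07 to 4.51, adjusted p = 0.00111) was the smallest among the 7 genes.

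Ager encodes RAGE, the receptor for advanced glycation end products, which in the lung is an AT1 membrane protein. The log2 values of Ager were 11.16, 11.26, 9.87 and 10.20 in PBS and 9.07, 8.75, 8.01 and 9.67 in SP. PBS replicate 3 and SP replicate 4 were only 0.20 units apart, so the groups were barely separated. The fall was 3.36-fold with a wide interval (1.73 to 6.54, adjusted p = 0.0105).

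Akap5 encodes an anchoring protein that holds protein kinase A and calcineurin at the membrane. Its log2 values were 9.17, 8.78, 6.47 and 7.34 in PBS and 5.80, 5.76, 6.03 and 6.34 in SP. The PBS arrays spanned 2.70 units, and PBS replicate 3 lay 0.14 above SP replicate 4. Akap5 fell 3.88-fold (95% interval 1.62 to 9.28, adjusted p = 0.021), and it was the 1 gene of the 7 whose call was lost under 4 of 17 alternatives, with the methods' t-test (adjusted p = 0.0531), without PBS replicate 2 (0.053), without SP replicate 1 (0.0537) and without SP replicate 2 (0.0503).

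Pdpn and Clic5 stood apart from the other 7 in value. Pdpn encodes podoplanin, the mucin-type glycoprotein also known as T1-alpha. Its log2 values were 9.74, 10.10, 9.41 and 9.35 in PBS and 10.34, 10.05, 9.25 and 10.72 in SP. SP replicates 1 and 4 lay above every PBS array, and SP replicate 3 lay below every one. The difference of 0.44 ± 0.31 log2 units (SE) was not called (adjusted p = 0.256), and its 95% interval ran from -0.27 to 1.14, so that neither a small fall nor a 2-fold rise lay outside it. Pdpn was called higher under 3 of 17 alternatives, without SP replicate 3 (0.72, adjusted p = 0.0361), with arrays centred on their median (0.72, 0.0336) and with array weights (0.75, 0.00991). The interval of Pdpn did not reach that of any of the 7 genes that fell, the nearest of which was Akap5 (-3.21 to -0.70).

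Clic5 encodes a chloride intracellular channel protein that links membranes to the actin cytoskeleton. Clic5 had log2 values of 11.12, 11.27, 10.16 and 10.40 in PBS and 11.16, 11.21, 9.48 and 10.47 in SP. In each group 2 arrays lay above 11 and the other 2 below 10.5, and SP replicate 3 was the lowest of all 8. The difference of -0.16 ± 0.42 (adjusted p = 0.758) had an interval of -1.11 to 0.80, which overlaps those of Ager (-2.71 to -0.79), Hopx (-2.17 to -1.05) and Akap5. It turned positive under 4 of 17 alternatives (0.02 to 0.41).

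Within the groups, the AT1 genes moved together from array to array. PBS replicates 1 and 2 both lay above replicates 3 and 4 in 8 of the 9 genes, Aqp5 being the exception, against 23.9% of all rows and 53.8% of the rows called at least 2-fold lower. PBS replicate 3 was the lowest PBS array for 7 of the 9 genes. In SP, replicate 4 was the highest array for 7 genes (77.8%), against 23.7% of all rows and 63.8% of the rows called at least 2-fold lower. SP replicate 3 was the lowest for 6 genes (66.7%), against 33.9% and 67.2%, so that this order was shared with most rows that were lower in SP. SP replicate 4 was not the highest for Hopx (replicate 3 was) or Clic5 (replicate 2 was). SP replicate 3 was not the lowest for Hopx, Akap5 or Gprc5a. Rows share arrays and are not independent, so these shares describe the arrays. The mean of the 9 genes was 10.69, 10.74, 9.78 and 10.02 in PBS replicates 1 to 4 and 8.83, 8.77, 8.27 and 9.26 in SP replicates 1 to 4. The mean of the neutrophil markers had another order, with its lowest PBS value in replicate 2 (12.80) and its highest SP value in replicate 3 (13.01). The part of cell composition in this spread was not tested.

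**Figure D2:**
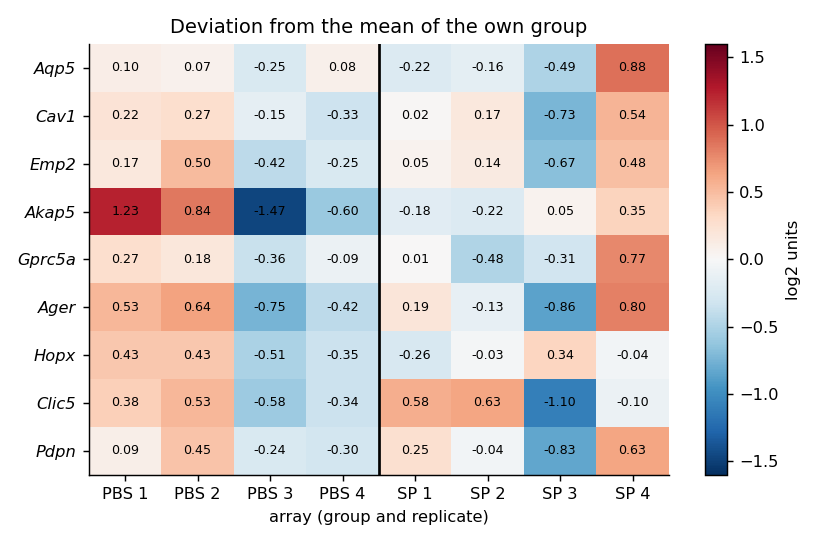
Deviation of each AT1 gene on each array from the mean of its own group (log2 units, red above and blue below, genes in rows and arrays in columns, the line dividing PBS from SP). PBS replicates 1 and 2 are above the mean in all 9 genes, and SP replicate 4 is the highest SP array in 7 of them, with Akap5 showing the widest spread in PBS (-1.47 to 1.23).

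A list of 22 further AT1 genes was examined next, all of which had a row. In SP 17 were called lower, 13 of them by at least 2-fold, 5 were not called and none was called higher (up to 3 under an alternative). The median difference was -1.49 log2 units. The largest falls were larger than any of the first 9 genes. Cyp2b10, a cytochrome P450, fell 13.5-fold, from 11.70 ± 0.47 to 7.94 ± 0.88 (SD, n = 4, adjusted p = 0.000248). Spock2, a matrix proteoglycan of AT1 cells, differed by -3.33 log2 units, from 8.61 ± 0.49 to 5.29 ± 0.43 (adjusted p = 6.01e-05). Sema3e, a secreted guidance factor, fell 6.27-fold, from 8.87 ± 0.37 to 6.22 ± 0.20 (adjusted p = 2.52e-05). No PBS and SP array overlapped in these 3 genes.

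The cytoskeletal and adhesion genes Limch1 (-2.54), Lmo7 (-2.42) and Lama3 (-2.03), the small heat shock gene Cryab (-2.20) and the secreted factor Ndnf (-1.97) also fell, with adjusted p from 0.000312 to 0.0108. Of the 3 genes of this list with the highest mean, the keratin Krt7 fell from 11.57 ± 0.16 to 9.74 ± 0.52, and the tight junction gene Cldn18, which AT2 cells also use, from 11.19 ± 0.33 to 9.87 ± 0.64. The third, Timp3, an inhibitor of metalloproteinases made by many cells, lay at 10.94 ± 0.53 and 10.93 ± 0.28. The other 4 genes not called, named because they are few, were Vegfa (0.16), Agrn (0.31), Itgb6 (0.46) and Flrt3 (-0.21), with adjusted p from 0.148 to 0.517. Genes made by other cell types as well were found among those that fell (such as Cldn18) and those not called (such as Vegfa, Agrn and Timp3). The cells that gave the values of this list were not tested, for genes that fell or for genes not called.

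Genes for regulators of AT1 identity were examined as well. Which cells their RNA came from was not tested. Of 9 genes, 8 had a row (Nkx2-1 did not), and 5 were called lower, 4 of them by at least 2-fold. The transcription factor genes Gata6 (-2.08 log2 units, adjusted p = 0.000941) and Klf5 (-1.89, 0.000168) fell. So did Tead1 (-1.43, 0.00828), the DNA-binding partner of YAP, Yap1 (-1.11, 0.0112) and Wwtr1 (-0.96, 0.0114), which encodes TAZ. The classical YAP target genes were not called, although Ccn1 was called lower without SP replicate 4 (-0.99, adjusted p = 0.00229) and with array weights (-0.71, 0.0374), and Ankrd1 higher with centred arrays (0.82, 0.0166). Ccn1 differed by -0.66 (adjusted p = 0.116), Ccn2 by -0.11 (0.834) and Ankrd1 by 0.54 (0.151), the last of them at 4.52 ± 0.26 in PBS, near the level of Y-linked rows, and at 5.06 ± 0.61 in SP, with replicate 4 at 5.96.

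**Figure D3:**
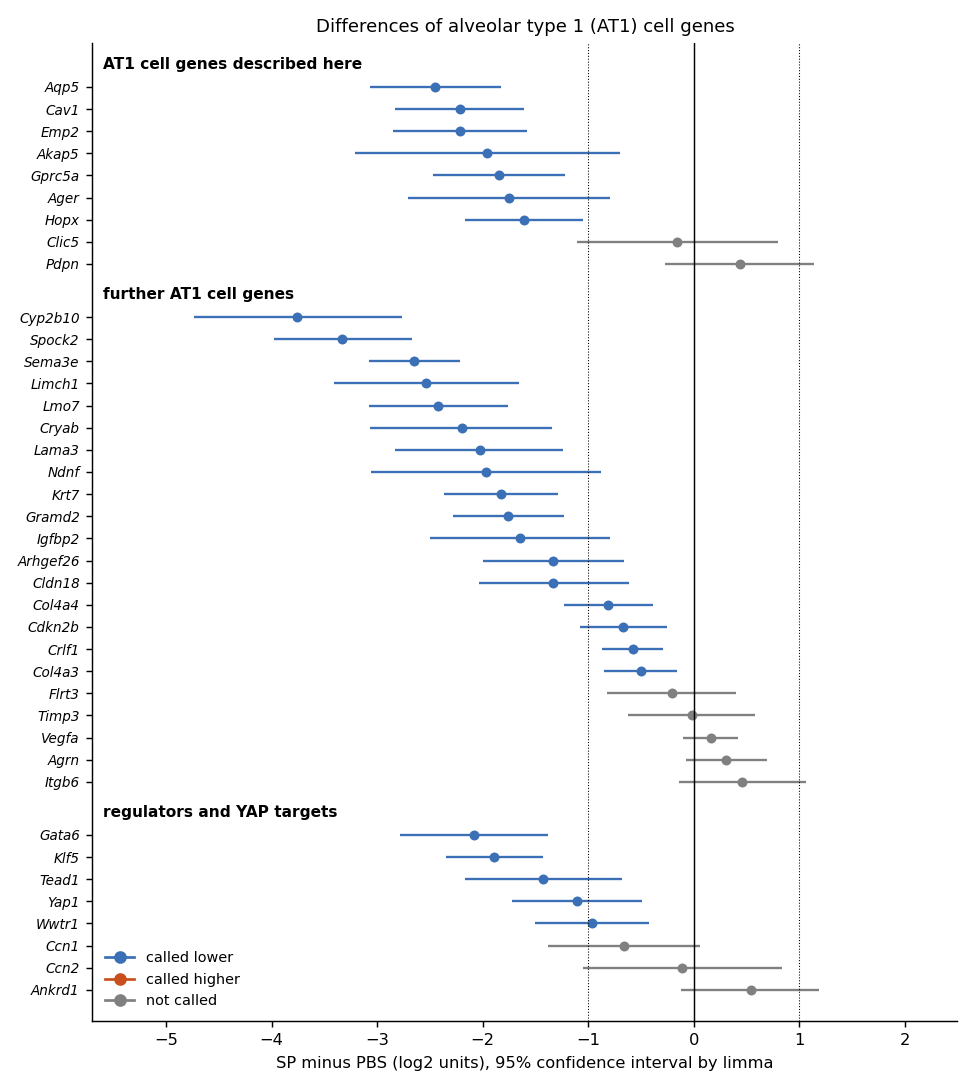
Difference between SP and PBS (x axis, log2 units) with its 95% confidence interval by limma for the 9 AT1 genes, 22 further AT1 genes and 8 regulators or YAP targets, blue where called lower and grey where not called, with dotted lines at 2-fold. Of the 9, 22 and 8 genes, 7, 13 and 4 were called at least 2-fold lower, and Clic5, Pdpn, Timp3, Vegfa, Agrn, Itgb6, Flrt3 and the 3 YAP targets have intervals that include 0.

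Relatives of these genes were examined by family. Caveolae are built from caveolins and cavins. Cav2, the partner of Cav1, fell by 2.40 log2 units (10.98 ± 0.44 to 8.58 ± 0.49), and Cavin1 (-2.15) and Cavin2 (-2.93) fell as well (adjusted p = 0.000308, 0.00111 and 0.00237). Cavin3 differed by -0.80 (adjusted p = 0.0777, called under 3 of 17 alternatives), and the muscle gene Cav3 was not called (4.64 ± 0.05 and 4.87 ± 0.15, adjusted p = 0.0599, called higher under 4 of 16 alternatives), with 4.99 and 5.01 in SP replicates 1 and 3 as its values above those of all Y-linked rows. The differences of Cav1, Cav2, Cavin1 and Cavin2 ran from -2.93 to -2.15. All 4 are used by endothelium as well as by AT1 cells.

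Aquaporins differed between members. Aqp1, the water channel of lung capillary endothelium, fell 6.11-fold (11.52 ± 0.27 to 8.91 ± 0.85, adjusted p = 0.000917), close to the 5.47-fold fall of Aqp5. Aqp9, which neutrophils express, was not called (10.63 ± 0.95 and 10.13 ± 0.50, adjusted p = 0.372). Aqp3 was also not called (-0.15, adjusted p = 0.447), and Aqp4 had no matched row.

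The family of Emp2 went different ways. Pmp22, first known from myelin and also an epithelial and mesenchymal gene, fell 3.96-fold (adjusted p = 0.00405), whereas Emp1 was not called (-0.25, 0.401). Emp3, a leukocyte gene, was higher by 0.60 log2 units (10.77 ± 0.45 to 11.37 ± 0.07, adjusted p = 0.0417), a call that was lost under 8 of 17 alternatives. Among the relatives of Clic5, Clic3 (-2.63) and Clic6 (-2.40) fell (adjusted p = 0.000330 and 0.000107), while Clic4 rose by 0.99 (11.15 ± 0.34 to 12.14 ± 0.08, adjusted p = 0.00151) and Clic1 differed by 0.38 (0.0553, called under 3 of 17 alternatives). The value of Clic5 (-0.16) lay between these. Gprc5c, a relative of Gprc5a, fell by 2.79 (9.63 ± 0.25 to 6.84 ± 0.06, adjusted p = 3.97e-06), and Gprc5b (-0.29) and Gprc5d (0.20) were not called (0.207 and 0.0813). Gprc5c had 2 rows, of which the one with the higher mean is given. Rtkn, the relative of the unmatched Rtkn2, fell by 1.88 (7.24 ± 0.26 to 5.37 ± 0.31, adjusted p = 0.000106).

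**Figure D4:**
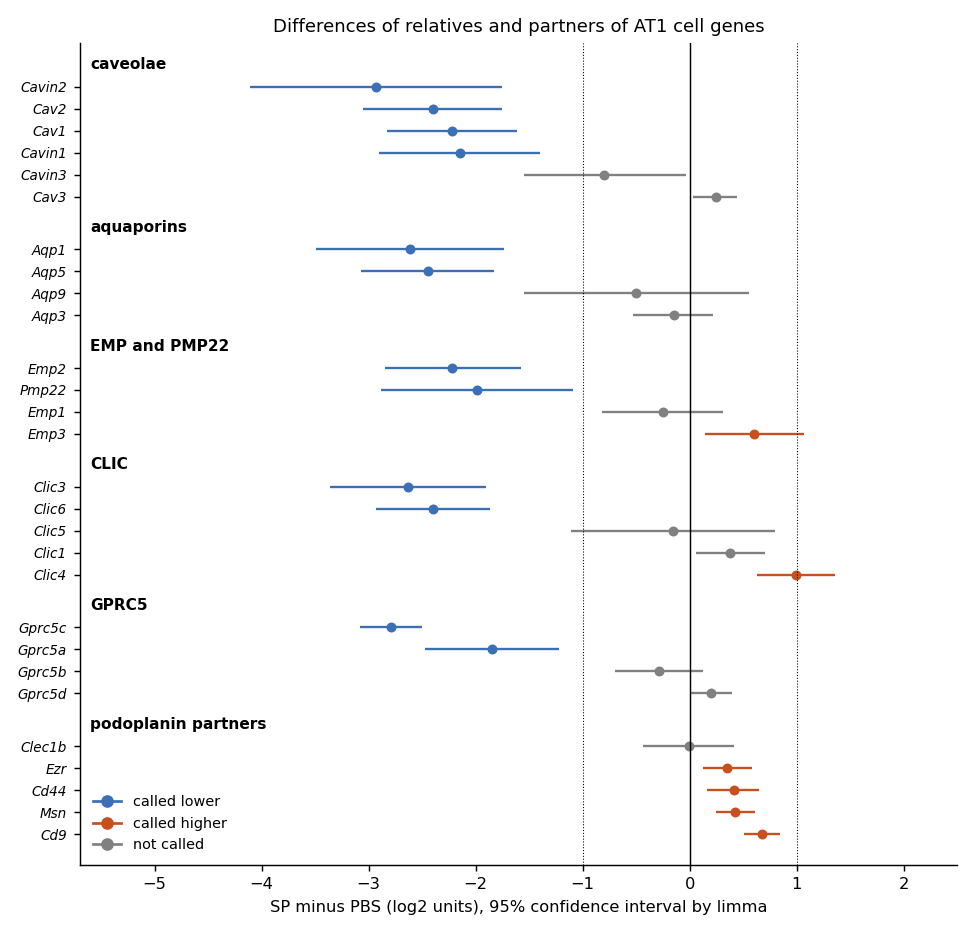
Difference between SP and PBS (x axis, log2 units) with its 95% confidence interval by limma for relatives of the AT1 genes and partners of podoplanin, blue where called lower, orange where called higher and grey where not called. Caveolar genes other than Cav3 and Cavin3 lie between -2.93 and -2.15, the CLIC family spans -2.63 to 0.99, and 4 of 5 podoplanin partners lie to the right of 0.

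Genes of binding partners gave values that differed by partner. Of 5 ligands of RAGE, S100a8 (-0.18), S100a9 (-0.30), Hmgb1 (-0.06) and S100b (-0.32) were not called (adjusted p = 0.0725 to 0.545), although S100a8, S100a9 and S100b were each called lower under 3 alternatives, among them the fit without SP replicate 3. S100a4 rose by 1.27 log2 units (6.15 ± 0.25 to 7.42 ± 0.31, adjusted p = 0.000737). S100a8 and S100a9 form calprotectin, the main cytosolic protein of neutrophils. Of 5 partners of podoplanin, Cd9 (0.67), Msn (0.42), Cd44 (0.41) and Ezr (0.35) were called higher (adjusted p = 0.000196, 0.00329, 0.0165 and 0.0222), and each of the 4 is also a gene of leukocytes. Clec1b, the platelet receptor CLEC-2 that binds podoplanin, was not called (-0.01, adjusted p = 0.952). Of 6 partners of AKAP5, the kinase A subunits Prkar2a and Prkar2b (-0.67) and the calcineurin subunits Ppp3ca (-0.75) and Ppp3cb (-0.36) were called lower (adjusted p = 0.000178 to 0.0232). The scaffold genes Dlg1 (0.11) and Dlg4 (-0.22) were not called (0.343 and 0.437).

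Markers of other lung cells were set beside the AT1 genes, since several of these genes are shared. All 9 pan-epithelial markers were at least 2-fold lower, with a median of -2.04 log2 units, among them Krt8 (-1.89) and Cdh1 (-2.01), which encodes E-cadherin. Of 10 AT2 markers, 8 were called lower, 6 by at least 2-fold, with a median of -1.15, and 5 were called lower without PBS replicate 2. The AT2 surfactant genes Sftpc and Sftpa1 differed by -0.93 and -0.94 (adjusted p = 0.00206 and 0.0375), the call of Sftpa1 being lost under 8 of 17 alternatives. Of 14 endothelial markers, 12 were called lower, 10 by at least 2-fold, with a median of -1.31 (Calcrl -1.63, Cdh5 -0.99). The 7 ciliated and 6 club cell markers were all called lower, with medians of -2.63 and -2.29 (Tppp3 -2.25, Cdhr3 -2.94, Cbr2 -1.95, Scgb1a1 -0.63).

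Whether the AT1 genes differed from these other lists was not tested. The median of -1.85 of the 9 AT1 genes lay between those of AT2 or endothelial markers and those of airway cells. Single differences overlapped between lists. They ran from -2.45 to 0.44 for the AT1 genes, from -2.33 to -0.25 for AT2 and from -2.8 to 0.05 for endothelial markers. Those of club and ciliated markers ran from -2.84 to -0.63 and from -3.5 to -1.77. The part of signal level in these medians was not tested. The endothelial markers shared the order of PBS arrays with the AT1 genes, since replicates 1 and 2 lay above 3 and 4 in all 14 of them, in 21 of the 22 further AT1 genes and in 8 of 10 AT2 markers, but in 2 of 7 ciliated, 0 of 5 mesothelial and 0 of 8 neutrophil markers. On the list of genes of the transitional state between AT2 and AT1 cells, 5 of 6 were called lower (Krt19 -2.87 and Krt8 -1.89, the latter also on the pan-epithelial list), with a median of -1.79, and Hbegf (0.49) was not called (adjusted p = 0.0682), but was called higher under 4 of 17 alternatives, among them the fit without SP replicate 3 (0.69, 0.00124).

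For Pdpn, lists of other cells that use it were compared. The 5 mesothelial markers with a row were all called at least 2-fold lower (Upk3b -4.31, Msln -2.60). Of 5 lymphatic endothelial markers, Flt4 was called lower (-0.80, adjusted p = 0.0195) and Lyve1 higher (0.57, 0.0312), the latter call lost under 8 of 17 alternatives, and Prox1, the defining factor of these cells, lay near the level of Y-linked rows in both groups (4.72 ± 0.13 and 4.55 ± 0.06). Of 9 fibroblast markers, 3 were called lower (Inmt -3.10, Dcn -1.85 and Mfap4 -1.34) and none higher, with a median of -0.66. Tcf21 (-0.9), Col1a2 (-0.66) and Col3a1 (-0.38) lay below 0 and were not called (adjusted p = 0.0872, 0.274 and 0.516). Pdgfra (0.92), Col1a1 (0.36) and Lum (0.22) lay above 0 and were also not called (adjusted p = 0.241, 0.235 and 0.26). Lum was near the level of Y-linked rows (4.81 ± 0.18 and 5.03 ± 0.29). Tcf21 was called lower under 2 of 17 alternatives, and Col1a1 higher under 2 of 17. With centred arrays 2 of the 9 were called higher, and Mfap4 lost its call under 2 of 17 alternatives. The mean of the fibroblast list lay between 8.12 and 8.94 in PBS and between 6.86 and 8.73 in SP. Within SP it was highest in replicate 4 and lowest in replicate 3, as were Pdpn itself and the means of the AT1, AT2, pan-epithelial, club, endothelial and mesothelial lists. The part of these cells in the values of Pdpn was not tested.

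Blood and immune cells gave mixed values. Of 9 alveolar macrophage markers, 5 were called lower, each by at least 2-fold (Mrc1 -2.7, Krt79 -2.01, Cidec -1.89, Fabp1 -1.59 and Pparg -1.5). Chil3, which neutrophils also express, was called higher (0.97, adjusted p = 0.0216), and 3 were not called, among them Abcg1 (0.62, 0.0844). The median of this list was -1.5, and its mean lay between 7.92 and 8.58 in PBS and between 6.88 and 7.45 in SP. With dim rows left out, 2 of its markers were called lower and the median was -0.86. Of 9 lymphocyte markers, the B cell genes Cd79a (-1.76) and Ms4a1 (-2.15) were called lower, and Nkg7 was not called (0.61, adjusted p = 0.373). Of 8 neutrophil markers, 3 were called lower, none by 2-fold, with a median of -0.27 (Retnlg -0.47, S100a8 -0.18). That count ran from 0 to 6 with 1 array left out (6 without SP replicate 3), and was 0 with centred arrays (median 0.01) and 7 after another quantile normalization (median -0.45). The median of the 9 AT1 genes was -1.56 with centred arrays.

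**Figure D5:**
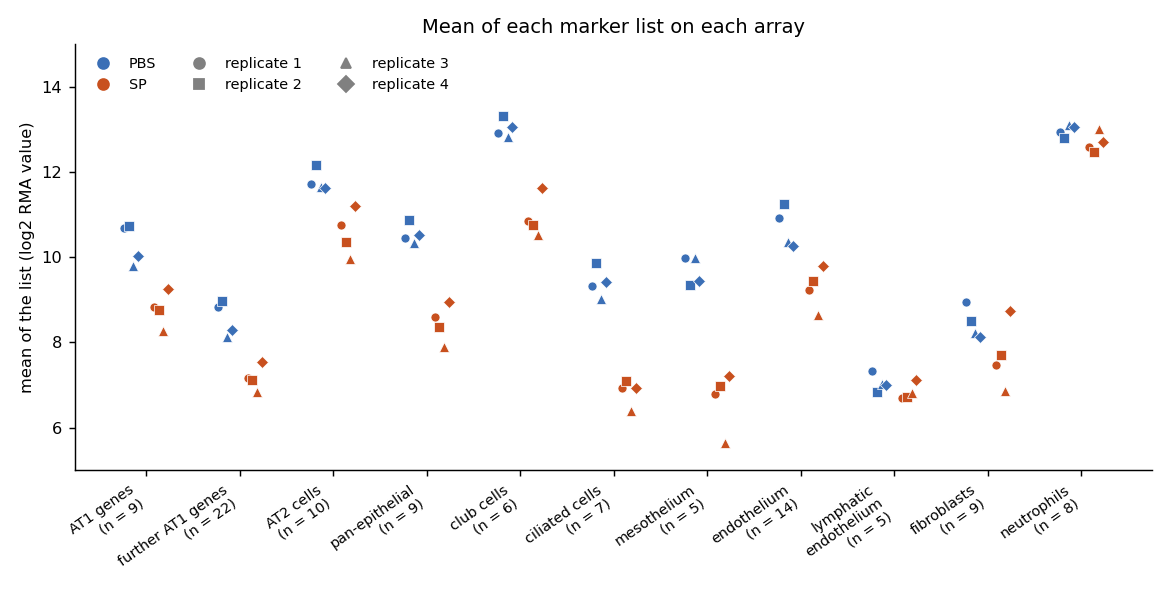
Mean of each marker list on each array (y axis, log2 RMA value) in PBS (blue) and SP (orange), with 1 marker shape per replicate number and the number of genes under each list. The AT1, AT2, pan-epithelial, club, ciliated, mesothelial and blood vessel endothelial lists are lower on every SP array than on any PBS array, from 9.78 to 10.74 in PBS and 8.27 to 9.26 in SP for the 9 AT1 genes, while neutrophil, fibroblast and lymphatic endothelial lists overlap between groups. Levels of different lists come from different probes and are not compared with each other.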

How the data were processed

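Lung neutrophils selected with anti-Ly6G beads were measured on Affymetrix Mouse Gene 1.1 ST arrays, 4 from SP and 4 from PBS mice. The authors deposited log2 values made by RMA (background correction, quantile normalization and median polish, with corrections for GC content and probe sequence), summarised per gene with a custom probeset mapping. The submitters' processing notes name Affymetrix Expression Console, RMA and Partek. The genome build was not given in the sources used here. Quantile normalization forces arrays to similar distributions, so a broad shift between groups can be understated. Precision is limited by how few arrays there were.

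Symbols came from a RefSeq table (GRCm38.p6) for 19915 of 24625 rows (80.9%). Where a symbol had several rows, that with the highest mean was used. Rtkn2, Nkx2-1, Scgb3a2, Foxj1, Wt1, Muc16, Ly6g and Aqp4 had no matched row. Groups were compared on all rows with limma 3.58.1 (lmFit and eBayes, R 4.3.3) and Benjamini-Hochberg adjustment, with scripts in Python 3.11.15 and figures in matplotlib 3.10.9, tested on simulated data. The members and the lists of other genes were chosen with earlier results of these data known. The text names every member, the further AT1 genes with the largest called differences or the highest means, all regulators, relatives and partners, and the brightest pair of each cell type list. Hbegf, Ms4a1, Prox1 and the fibroblast markers other than Dcn and Inmt were named after their values were seen. So were the alveolar macrophage markers called lower and the further AT1 genes not called. Alternatives were array weights, centred arrays, a second quantile normalization, another prior, dim rows left out, other rows per symbol, the methods' t-test, the replicate number as a block, and each array left out.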

Additional observations from a re-analysis of the deposited data

Results flagged for a closer look

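Of 66 groups of 4 values examined for a value far from the others, 2 exceeded Dixon's critical ratio, and about 1 in 20 such groups does so by chance. In PBS, replicate 3 of Aqp5 (9.71) lay below the other 3 arrays (10.03 to 10.06), with a gap of 0.906 of the range. The mean of the alveolar macrophage markers was highest in PBS replicate 1 (8.58, against 7.92 to 8.01), with a gap of 0.858 of the range.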

How the results depend on the processing

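Of the 7 genes called lower, 6 (all but Akap5) kept that call under all 17 alternatives. Taking the lowest row of a symbol, an alternative that reused the main fit, could not change the call of a gene with only 1 row. The count of genes called lower was 6 to 7 when 1 array was left out, with a median difference between -2.07 and -1.57. Rows called numbered 10860, 18255 with centred arrays and 8200 to 10907 with 1 array left out. Centring moved the median of all rows from 0.10 to 0.38. Among rows called at least 2-fold, 63.9% were lower, against 44.4% with centred arrays and 53.9% after another quantile normalization. Of the further AT1 genes, 15 to 17 were called lower with 1 array left out and 12 with dim rows left out, where fewer genes were tested. Genes of that list called higher numbered 3 with centred arrays, 2 with array weights, and 1 each without PBS replicate 2 and with another quantile normalization (Agrn under 3 alternatives, Vegfa and Itgb6 under 2). The difference of Clic5 was 0.41 with array weights and 0.12 with centred arrays, and ran from -0.37 to 0.21 with 1 array left out, positive without PBS replicate 2 (0.02) and without SP replicate 3 (0.21). The median of the CLIC family was 0.25 with array weights and 0.12 with centred arrays, and ran from -0.37 to 0.21 (without SP replicate 3) with 1 array left out. Centring also turned the medians of lymphatic endothelium (0.11), neutrophils (0.01) and RAGE ligands (0.10). The cause was not tested. Correlations of same-numbered deviations were 0.016, 0.03, 0.35 and -0.274, that of replicate 3 being the highest of all pairs. With deviations taken from means of 4 arrays, such values cannot show whether replicate numbers pair the arrays. With a replicate block 7 AT1 genes, 17 further AT1 genes and 9842 rows were called. Of 112 other genes called, 94 kept their call under every alternative. Among named genes that did not, Retnlg lost it under 9, Emp3, Lyve1 and Sftpa1 under 8, Prkar2b under 7, Chil3 under 5, Ezr and Flt4 under 3, Cd44 and Mfap4 under 2 and Ppp3cb under 1.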
